A study of Mus musculus with 3 samples.

Results

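The interferon regulatory factors are transcription factors that share an N-terminal DNA-binding domain. The 8 members described here, Irf1, Irf2, Irf3, Irf4, Irf5, Irf7, Irf8 and Irf9, were chosen by gene symbol among the 50600 genes of the deposited tables, without using their values. The study measured RNA of T-helper 1 (Th1) primary cells of the mouse strain C57BL/6NJ in 3 sequencing libraries of 1 group, at 48 h per the file headers. The labels leave sex and age open (not collected and unknown) and give no genotype, control or second treatment. The libraries share a donor identifier and differ in their biological replicate number, so the spread between them may be technical and p-values measure only that spread. Th1 cells are CD4 helper T cells that secrete interferon gamma, and they were obtained here by a CD4 T cell differentiation protocol whose text was not used.

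Members of the family bind DNA elements with repeated GAAA cores. IRF3 and IRF7 are phosphorylated downstream of nucleic acid sensors and turn on type I interferon genes, IRF5 acts downstream of Toll-like receptors, and IRF9 joins STAT proteins in the ISGF3 complex. IRF1 is induced by interferon gamma and supports Th1 differentiation, IRF2 often opposes it at the same sites, and IRF4 and IRF8 bind composite elements with partners such as BATF and JUN proteins in lymphocytes.

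The DNA-binding part of the family is conserved in nucleotide sequence, which bears on whether reads of one member can be told from another's. Over the 28 pairs of members, the longest stretch identical in any transcripts of both was between 11 and 19 bases. The closest windows of 90 coding bases around the longest shared stretch belonged to Irf4 and Irf8, with 66 identical bases (73.3%), followed by Irf1 and Irf2 with 64 (71.1%) and by Irf8 and Irf9 with 64. The windows of the first pairs are printed from GENCODE M21 transcripts, 5′ to 3′, with capitals where both members of a pair have the same base. They start at coding base 259 of Irf4, 214 of Irf8, and 236 of both Irf1 and Irf2, counted from 1 at the first coding base.
Irf4: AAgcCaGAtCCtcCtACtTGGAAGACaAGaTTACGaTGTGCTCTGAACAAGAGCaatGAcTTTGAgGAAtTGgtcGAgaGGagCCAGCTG
Irf8: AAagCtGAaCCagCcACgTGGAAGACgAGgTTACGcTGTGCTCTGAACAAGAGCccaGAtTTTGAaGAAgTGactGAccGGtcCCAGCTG
Irf1: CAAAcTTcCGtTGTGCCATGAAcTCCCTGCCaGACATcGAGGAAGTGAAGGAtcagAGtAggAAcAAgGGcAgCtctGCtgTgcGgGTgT
Irf2: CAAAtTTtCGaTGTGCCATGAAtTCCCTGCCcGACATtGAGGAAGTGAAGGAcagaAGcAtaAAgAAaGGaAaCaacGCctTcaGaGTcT
The identical stretch of the Irf4 and Irf8 windows runs over 18 bases and that of Irf1 and Irf2 over 14, so the counts of these genes rest on reads that differ between them wherever a read is longer than such a run.

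All 8 members have a promoter in the RefSeq table (GRCm38.p6), in 11 windows of 250 bases upstream of a start site. The windows were searched on both strands for the gamma-activated site TTCNNNGAA, for an IRF element of 2 GAAA cores separated by 2 bases, and for a kappaB-like element. The gamma-activated site was present in 3 of the 11 windows, those of Irf1, Irf2 and Irf8, against 7.02% of all 32851 promoter windows of this length. Those windows are printed because they hold every match found, in capitals, in the direction of the gene.
Irf1, chr11:53769764-53770013, plus strand: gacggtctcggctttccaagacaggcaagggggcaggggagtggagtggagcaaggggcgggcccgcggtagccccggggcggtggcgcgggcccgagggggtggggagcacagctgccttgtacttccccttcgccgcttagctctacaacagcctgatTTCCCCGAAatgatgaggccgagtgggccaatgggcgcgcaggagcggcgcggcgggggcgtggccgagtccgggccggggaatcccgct
Irf8, chr8:120736108-120736357, plus strand: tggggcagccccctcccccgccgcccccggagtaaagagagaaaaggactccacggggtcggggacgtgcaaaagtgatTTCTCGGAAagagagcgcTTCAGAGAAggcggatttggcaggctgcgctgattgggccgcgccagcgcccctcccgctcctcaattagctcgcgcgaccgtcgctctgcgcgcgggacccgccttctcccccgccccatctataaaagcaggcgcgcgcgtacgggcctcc
Irf2, chr8:46739495-46739744, plus strand: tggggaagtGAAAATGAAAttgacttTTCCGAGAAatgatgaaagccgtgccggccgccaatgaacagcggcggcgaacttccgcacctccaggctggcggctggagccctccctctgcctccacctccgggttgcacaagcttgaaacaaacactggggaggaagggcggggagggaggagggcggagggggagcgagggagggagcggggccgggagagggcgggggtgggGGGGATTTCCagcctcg
In Irf1 the match TTCCCCGAA lies 90 to 82 bases before the start site, and Irf8 has TTCTCGGAA at 171 to 163 bases and TTCAGAGAA at 153 to 145 bases before it. Irf2 has TTCCGAGAA at 224 to 216 bases before its start, an IRF element at 241 to 232 bases and a kappaB-like match at 17 to 8 bases before it, and these do not overlap. An IRF element was found in 2.98% and a kappaB-like element in 1.41% of all promoter windows. The matches describe letters in these windows and not binding.

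Depth set how firmly each member can be described. The libraries held 4742025, 50627 and 3543816 counts in replicates 1, 2 and 3, over 17270, 7749 and 16786 genes, and a count of 0 still allows (as 3 counts) up to 0.633, 59.3 and 0.847 CPM (counts scaled to a total of 1000000). Replicate 2 therefore fixes only the higher members, and its 0 counts are no sign of absence. The 13 T cell markers were all at 1 TPM (counts per gene length, scaled to a sum of 1000000) or more in every library, led by Trac, Trbc1, Cd5 and Thy1. In replicate 2, 1 count gave between 5.58 TPM (Irf2) and 14.2 TPM (Irf5) for the members. A level of 1 TPM or more there therefore means at least 1 count, for members and listed genes alike. Intervals given below are exact 95% intervals that cover counting error only. Because these are bulk samples, fewer cells expressing a gene and less RNA per expressing cell cannot be told apart. The strand setting of the counting may not match the libraries, which was not tested and applies to the levels of all members and lists. Protein-coding genes summed to 577001, 532068 and 395994 of 1000000 TPM in replicates 1, 2 and 3.

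The family made up between 0.163% and 0.186% of all counts in each library, and Irf5, Irf8, Irf4 and Irf1 made up nearly all of it. Its 8 genes took 8809, 92 and 5785 counts, or 0.186% (0.182 to 0.190%), 0.182% (0.147 to 0.223%) and 0.163% (0.159 to 0.168%) of the totals of replicates 1, 2 and 3, and the intervals of replicates 1 and 3 did not overlap. By mean TPM the order was Irf5, Irf8, Irf4, Irf1, Irf3, Irf2, Irf9, Irf7, and the first 5 places were the same in each of the 3 libraries. In all libraries 6 of 8 members reached 1 TPM, against 29.4% of 21764 protein-coding genes. In replicates 1 and 3, where low genes could be seen, 8 of 8 did, against 44.3% of protein-coding genes. The median log2(TPM + 1) of the family was 5.62, 5.60 and 4.47 in replicates 1, 2 and 3, while that of all protein-coding genes was 0.72, 0 and 0.54.

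**Figure D1:**
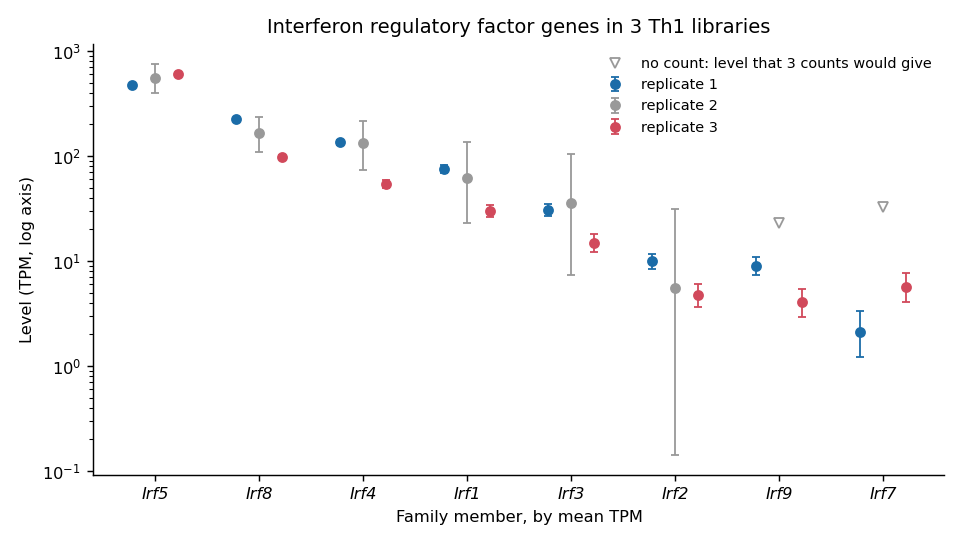
Level of each family member (TPM, log axis) in each Th1 library, with exact 95% counting intervals; open triangles mark genes with no count at the level that 3 counts would give. Irf5 is highest in all 3 libraries at 470 to 600 TPM, the interval of Irf2 in replicate 2 rests on 1 count, and Irf9 and Irf7 have no count in replicate 2.

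Among the members tied to lymphocyte and myeloid identity, Irf8 and Irf4 were both abundant. Irf8 (ENSMUSG00000041515.9, chromosome 8, 120736358 to 120756694 of mm10, plus strand, 7055 exonic bases) is best known for directing dendritic cell, monocyte and B cell development, and is also expressed in activated T cells. It had 3384, 28 and 1359 counts and levels of 224 (217 to 232), 164 (109 to 237) and 97.7 (92.6 to 103) TPM in replicates 1, 2 and 3, a mean of 162 ± 63.2 TPM (SD, n = 3). It stood above 98.1%, 97.4% and 96.8% of protein-coding genes in the 3 libraries. Replicates 1 and 3 did not overlap in their intervals, and that of replicate 2 overlapped replicate 1 only.

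Irf4 (ENSMUSG00000021356.9, chromosome 13, 30749226 to 30766927, plus strand, 4715 exonic bases) is induced by T cell receptor signalling and is needed for effector helper T cell differentiation. Its counts were 1356, 15 and 504, and its level was 134 (127 to 142), 131 (73.5 to 217) and 54.2 (49.6 to 59.2) TPM in replicates 1, 2 and 3, a mean of 107 ± 45.4 TPM (SD, n = 3). Replicate 3 was again low and the other libraries overlapped. The log2 TPM ratio of Irf4 over Irf8 was -0.74 (-0.83 to -0.65), -0.32 (-1.33 to 0.63) and -0.85 (-1.0 to -0.70) in replicates 1, 2 and 3. Irf4 was thus 0.600, 0.802 and 0.555 times the level of Irf8, with an interval that excluded equality in the deep libraries and included it in replicate 2. In the deposited annotation no exon of Irf4 or Irf8 lies under an exon of a gene on the other strand.

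The interferon gamma-induced activator Irf1 was several-fold above its antagonist Irf2 in every library. Irf1 (ENSMUSG00000018899.16, chromosome 11, 53770014 to 53778374, plus strand, 3976 exonic bases) had 640, 6 and 233 counts and levels of 75.2 (69.5 to 81.2), 62.3 (22.9 to 136) and 29.7 (26.0 to 33.8) TPM in replicates 1, 2 and 3, a mean of 55.7 ± 23.4 TPM (SD, n = 3). Irf2 (ENSMUSG00000031627.9, chromosome 8, 46739732 to 46847458, plus strand, 7396 exonic bases) had 157, 1 and 69 counts and levels of 9.91 (8.42 to 11.6), 5.58 (0.141 to 31.1) and 4.73 (3.68 to 5.99) TPM, a mean of 6.74 ± 2.78 TPM (SD, n = 3). Irf1 exceeded Irf2 7.58-fold, 11.2-fold and 6.28-fold in replicates 1, 2 and 3, as log2 ratios of 2.92 (2.67 to 3.18), 3.48 (0.44 to 9.00) and 2.65 (2.26 to 3.06). The interval excluded equality in each library, although that of replicate 2 rests on 7 counts in all. Irf4 likewise exceeded Irf2 in each library, by log2 ratios of 3.76, 4.56 and 3.52 in replicates 1, 2 and 3.

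Of the members that switch on type I interferon genes, Irf3 was at a moderate level and Irf7 the lowest of the family by mean TPM. Irf3 (ENSMUSG00000003184.15, chromosome 7, 44997648 to 45002848, plus strand, 3442 exonic bases) is made constitutively in most cells. Its counts were 225, 3 and 101 and its level was 30.5 (26.7 to 34.8), 36.0 (7.42 to 105) and 14.9 (12.1 to 18.1) TPM in replicates 1, 2 and 3, a mean of 27.1 ± 10.95 TPM (SD, n = 3). Irf7 (ENSMUSG00000025498.15, chromosome 7, 141262706 to 141266481, minus strand, 3776 exonic bases), itself induced by type I interferon in most cells, had 17, 0 and 42 counts and levels of 2.10 (1.22 to 3.37), 0 and 5.64 (4.07 to 7.63) TPM. Its replicate 2 value allows up to 32.8 TPM. Irf3 exceeded Irf7 by log2 ratios of 3.86 (3.15 to 4.66) and 1.4 (0.87 to 1.95) in replicates 1 and 3, so the direction was the same and the size differed beyond counting error.

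Irf9 (ENSMUSG00000002325.14, chromosome 14, 55603571 to 55610030, plus strand, 5386 exonic bases), the DNA-binding subunit of ISGF3, was low. It had 104, 0 and 43 counts, or 9.02 (7.37 to 10.9), 0 and 4.05 (2.93 to 5.46) TPM in replicates 1, 2 and 3, and the 0 allows up to 23.0 TPM. Set against Stat2, its partner in that complex, its level did not differ beyond counting error, with log2 ratios of Irf9 over Stat2 of 0.15 (-0.26 to 0.56) and -0.051 (-0.68 to 0.57) in replicates 1 and 3. Irf9 also shares 123 bases on the same strand with Rnf31, the catalytic subunit of the linear ubiquitin ligase, and fragments over both genes are by the counter's default assigned to neither.

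Irf5 (ENSMUSG00000029771.12, chromosome 6, 29526625 to 29541871, plus strand, 2905 exonic bases) was the highest member by TPM in every library. It is known for driving inflammatory cytokine genes in macrophages, dendritic cells and B cells. Its counts were 2926, 39 and 3434 and its level was 470 (454 to 488), 554 (394 to 758) and 600 (580 to 620) TPM in replicates 1, 2 and 3, a mean of 541 ± 65.6 TPM (SD, n = 3). It stood above 99.2%, 99.4% and 99.6% of protein-coding genes and made up 49.2%, 58.1% and 74.0% of the family's TPM. By CPM, which ignores length, Irf8 was first in replicate 1 with 714 CPM, against 617 CPM for Irf5. The strand setting of the counting, described below with the overlaps, may not match the libraries. If it does not, this level and rank, like those of the other members, would count fragments from the other strand, which was not tested. In contrast to the other abundant members, replicate 3 was the library with the highest level, and its interval did not overlap that of replicate 1.

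The order between neighbours was the same in each library at the top of the family and unresolved at the bottom. Irf5 over Irf8 had log2 TPM ratios of 1.07 (0.998 to 1.14), 1.76 (1.02 to 2.51) and 2.62 (2.53 to 2.71) in replicates 1, 2 and 3, above 0 in each. Irf8 over Irf4, Irf4 over Irf1, Irf1 over Irf3 and Irf3 over Irf2 were above 0 in 3 of 3 libraries, with mean log2 ratios of 0.64 ± 0.28, 0.93 ± 0.13, 1.03 ± 0.26 and 1.99 ± 0.61 (SD, n = 3), and with intervals above 0 in replicates 1 and 3 and across 0 in replicate 2. An exact sign-flip test (two-sided, 3 libraries) gave p = 0.25 for each of these 5 neighbours, the smallest it can give, and 0.35 after Benjamini-Hochberg adjustment over 7 neighbour pairs. The neighbour pairs were set by the order of mean TPM in these same libraries, so the test is no separate support for that order. Irf2 and Irf9 did not differ beyond counting error, at log2 ratios of 0.14 (-0.23 to 0.51) and 0.22 (-0.35 to 0.81) in replicates 1 and 3. Irf9 over Irf7 was 2.10 (1.35 to 2.93) in replicate 1 and -0.48 (-1.13 to 0.17) in replicate 3, so the lowest places were not settled. For the 7 fixed pairs the same test gave adjusted p-values of 0.44 for the 4 pairs seen in all 3 libraries, and 0.58 to 1 for the others, which 2 libraries cannot bring below an unadjusted 0.5.

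**Figure D2:**
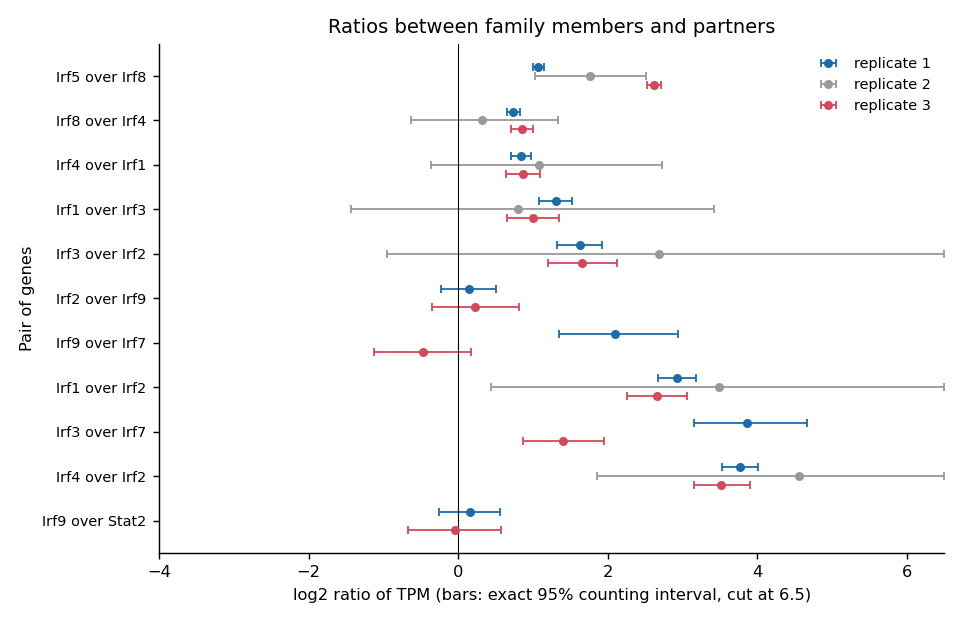
Log2 ratio of TPM for neighbouring members and fixed pairs in each library, with exact 95% counting intervals; a library in which either gene has no count has no point. The points of the neighbour pairs from Irf5 over Irf8 to Irf3 over Irf2 lie right of 0 in every library, while Irf2 over Irf9 and Irf9 over Stat2 span 0.

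Single members moved in opposite directions between libraries. Between the deep libraries, the log2 CPM ratio of replicate 3 over replicate 1, scaled by library totals, was below 0 for 6 members and above 0 for Irf5 and Irf7. Of all 10019 genes with at least 50 counts in both libraries together, 25.3% were above 0, so the share among the members is close to the background. Irf8 had 383 CPM in replicate 3 and 714 CPM in replicate 1, a log2 ratio of -0.90 (-0.99 to -0.80), and the other members with negative ratios lay between -1.04 for Irf1 and -0.74 for Irf3. Irf5 had 969 CPM in replicate 3 and 617 CPM in replicate 1, a log2 ratio of 0.65 (0.58 to 0.72). Irf7 had 11.9 CPM in replicate 3 and 3.58 CPM in replicate 1, a log2 ratio of 1.73 (0.88 to 2.63). These ratios compare libraries of 1 group and not conditions.

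The ratio went with exon overlap between strands across the whole table. Among genes with at least 50 counts in both libraries together, the median log2 ratio was 0.78 for the 211 genes with 90% or more of their exonic length under exons of the other strand, of which 205 were above 0. It was -0.84 for the 5857 genes with no such overlap (quartiles -1.04 and -0.64), of which 303 were above 0. Between them, the median was -0.40 for the 2838 genes in which up to 20% of the exonic length overlapped. The quartiles of this class were -0.84 and 0.62, and 1158 of its genes were above 0. The ratios of Irf8, Irf4, Irf3, Irf2 and Irf9 lay within the quartiles of the genes without overlap and Irf1 just under them. Irf5 lay 1.5 and Irf7 2.57 above the median of the genes without overlap. Irf5, Irf7, Irf1 and Irf3 themselves belong to the class with up to 20% overlap. Irf5 lay just above the upper quartile of that class, Irf7 further above it, Irf3 within its quartiles and Irf1 below them. Scaling the libraries by TMM over genes without overlap added 0.82 to every log2 ratio, which left Irf8 at -0.078 (-0.17 to 0.013), Irf9 at -0.036, Irf4 at -0.19 and Irf1 at -0.22. It turned the direction of Irf3 to 0.082 (-0.27 to 0.43) and of Irf2 to 0.052 (-0.38 to 0.47), both spanning 0, and it put Irf5 at 1.47 and Irf7 at 2.54.

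**Figure D3:**
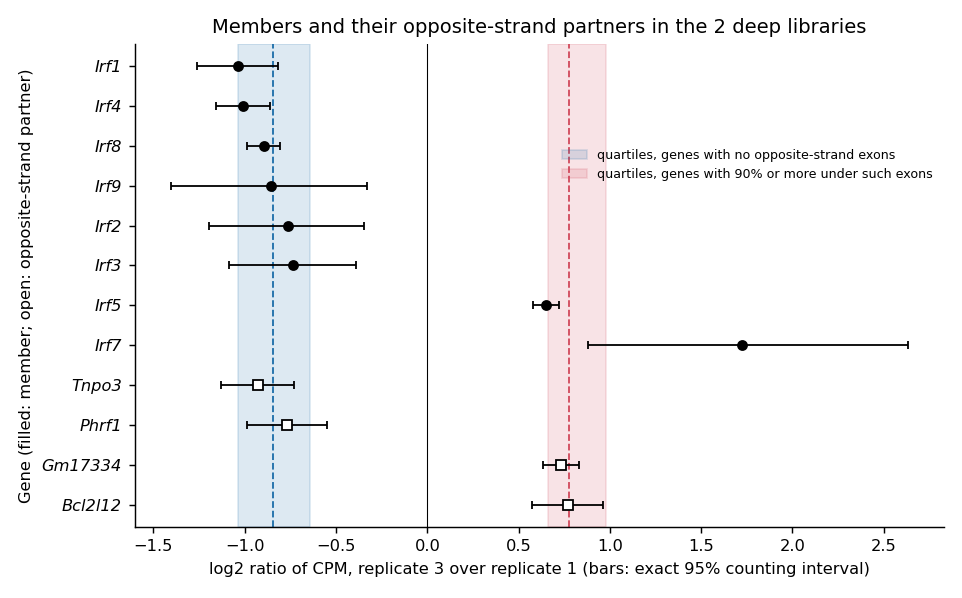
Log2 ratio of CPM in replicate 3 over replicate 1 for the 8 members (filled) and the 4 opposite-strand partners (open), with exact 95% counting intervals; bands and dashed lines give the quartiles and median of genes without opposite-strand exons (blue) and with 90% or more overlap (red). Irf5 and Irf7 lie right of 0 with the partners Gm17334 and Bcl2l12, and the other 6 members lie left of 0 with Tnpo3 and Phrf1 when scaled by library totals as here.

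Opposite-strand exon overlap touched 4 of 8 members, Irf5, Irf1, Irf3 and Irf7, against 16.2% of all genes (8189 of 50600). Among protein-coding genes it touched 4801 of 21764. The counts were made with strand setting 1, per the file headers, and the library kit is not given in the sources used here. Whether that setting matches the libraries could not be settled from these tables, and a wrong setting would assign fragments to the gene opposite their source. Reads of a partner also cannot be told apart from a member's within the shared bases by these tables. Irf5 shares 411 bases (14.1% of its exonic length) with Tnpo3, which encodes the nuclear import receptor transportin 3. In GENCODE M21 all of them lie in the 3′ UTR of Tnpo3, and in Irf5 they fall on 123 coding, 128 3′ UTR and 160 noncoding exon bases of 2 of its 6 transcripts. Tnpo3 had 754, 5 and 296 counts, and per exonic length Irf5 was 17.5, 35.2 and 52.3 times as high as Tnpo3 in replicates 1, 2 and 3. The log2 ratio of replicate 3 over replicate 1 was 0.65 for Irf5 and -0.93 (-1.13 to -0.73) for Tnpo3, so by library totals the partners moved in opposite directions.

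Irf1 shares 135 bases (3.40%) with Gm17334, a single-exon predicted gene of 907 bases on the other strand, within the Irf1 locus. Gm17334 had 1498, 6 and 1857 counts, or 771, 273 and 1039 TPM in replicates 1, 2 and 3, and Irf1 was 0.0975, 0.228 and 0.0286 times as high per exonic length. Its ratio of replicate 3 over replicate 1 was 0.73 (0.63 to 0.83), against -1.04 (-1.26 to -0.82) for Irf1. By library totals Irf1 was thus lower and Gm17334 higher in replicate 3 than in replicate 1, and the cause was not tested.

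Irf3 shares 88 bases (2.56%) of 5′ UTR with Bcl2l12, a BCL2 family gene transcribed the other way. Bcl2l12 had 385, 5 and 490 counts, and its log2 ratio of replicate 3 over replicate 1 was 0.77 (0.57 to 0.96), against -0.74 (-1.09 to -0.39) for Irf3. Irf7 shares 45 bases (1.19%) with Phrf1, a PHD and RING finger gene, in the 3′ UTR of both. Phrf1 had 560, 7 and 246 counts, and its log2 ratio was -0.77 (-0.99 to -0.55), against 1.73 for Irf7. Of the exonic length of Bcl2l12, 4.45% is shared with Irf3, while 33.4% lies under opposite-strand exons in all. In each of the 4 pairs the gene on 1 strand was higher and the gene on the other strand lower in CPM in replicate 3 than in replicate 1. How often this holds over all such pairs of genes was not counted. Scaled by TMM over genes without overlap, the higher genes Irf5, Irf7, Gm17334 and Bcl2l12 came to log2 ratios of 1.47, 2.54, 1.55 and 1.59. The lower genes Irf1, Irf3, Tnpo3 and Phrf1 came to -0.22, 0.082, -0.11 and 0.051. The opposite directions thus held only for the pairs of Irf1 and Irf5, with an interval across 0 for Tnpo3 (-0.31 to 0.085). The gap within each pair cannot change under this scaling, which adds the same amount to every log2 ratio. The cause of the opposite directions was not tested.

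**Figure D4:**
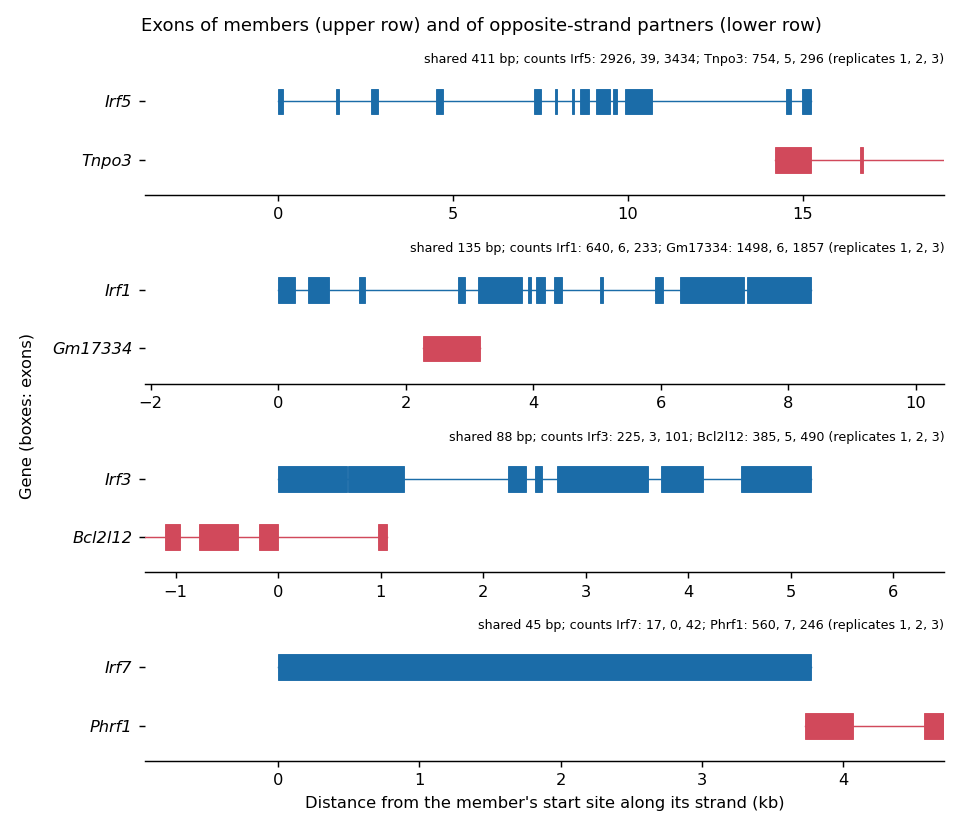
Exons (boxes) of Irf5, Irf1, Irf3 and Irf7 in the upper row of each panel and of their opposite-strand partners in the lower row, by distance from the member's start site (kb); counts of both genes in replicates 1, 2 and 3 stand above each panel. The shared stretches are 411, 135, 88 and 45 bases long, at the 3′ end of Irf5 and Irf7, inside Irf1 and at the 5′ end of Irf3.

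Whether members varied between libraries beyond counting error was tested by chi-square on TMM-scaled totals over the 7406 genes kept by the edgeR filter on low counts, and 4681 of all genes tested (63.2%) passed an adjusted p of 0.05. Of the 6 members kept, 4 passed, at adjusted p-values of 7.90e-211 for Irf5, 2.47e-20 for Irf8, 5.48e-12 for Irf4 and 2.19e-06 for Irf1. Irf3 (adjusted p = 0.307) and Irf2 (adjusted p = 0.336) did not pass, and Irf9 and Irf7 were filtered out. With so many of all genes called, 4 of 6 is close to the background. Between replicates 1 and 3 alone, 5 of 8 members passed, Irf7 among them, against 37.9% of 11003 genes.

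The call of Irf5 was the same under each scaling tried, while those of the other 5 members tested depended on it. With library totals in place of TMM, 88.4% of the 7406 genes and 6 of 6 members passed, with adjusted p-values of 0.000117 for Irf3 and 0.00127 for Irf2. With TMM over genes without opposite-strand exons, an alternative chosen after the counts were seen, 38.9% of the 7406 genes passed and Irf5 was the only one of the 6 members to do so. Irf4, Irf8 and Irf1 then had adjusted p-values of 0.0968, 0.139 and 0.248. When only the 4136 genes without opposite-strand exons were tested, 13.5% passed and none of Irf2, Irf4 and Irf8 did, of which Irf4 alone had an unadjusted p under 0.05 (0.0404).

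The genes nearest to the highest members in level were found by the root mean square difference in log2(TPM + 1) over the 3 libraries, among protein-coding genes. For Irf8 they were Tfrc, the transferrin receptor (0.02), Ftsj3, a ribosomal RNA processing factor (0.05), and Gdi2, a Rab GDP dissociation inhibitor (0.06), with 0%, 0% and 8.43% of their exonic length under opposite-strand exons. Tfrc had 227, 160 and 97.2 TPM in replicates 1, 2 and 3, beside 224, 164 and 97.7 TPM for Irf8. For Irf5 they were Msmp (0.13), 1600012H06Rik (0.16) and E130218I03Rik (0.18), with 100%, 14.3% and 76.6% of their length under such exons. Msmp had 421, 611 and 574 TPM in replicates 1, 2 and 3. Because these genes were picked by their levels in the same libraries, their likeness in pattern is set by the rule.

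The pathways around the family were described by 8 lists of 108 genes, of which 51 reached 1 TPM in every library. For this and the list counts below, the background is 29.4% of 21764 protein-coding genes in every library and 44.3% in replicates 1 and 3. Of the 18 sensors, adaptors and kinases that activate IRF3, IRF5 and IRF7, 10 reached 1 TPM in every library, and 14 did in replicates 1 and 3. Tmem173, which encodes the DNA-sensing adaptor STING, led with 109, 161 and 35.5 TPM in replicates 1, 2 and 3. Irak4, Irak1 and Myd88 of Toll-like receptor signalling followed, Myd88 at 34.1, 32.1 (2 counts) and 25.2 TPM. Tlr3 and Tlr4 had no count. Irak4 had 60.5 TPM in replicate 3 and 46.9 TPM in replicate 1, with 7.87% of its exonic length under exons of the other strand.

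Genes of interferon gamma receptor signalling were detected in all libraries. Of 9 receptor, JAK and STAT genes, 7 were at 1 TPM or more in each library and all 9 in replicates 1 and 3, with Jak2 at 143, 140 and 59.0 TPM in replicates 1, 2 and 3. Of 23 interferon gamma-induced and IRF1-dependent genes, 17 reached 1 TPM in every library, led by the class I subunit B2m (921, 576 and 388 TPM), the GTPases Igtp and Gbp2, and the immunoproteasome subunit Psmb8. Among 10 interferon genes, Ifng alone had counts, at 54.1, 63.8 (2 counts) and 17.2 TPM, and the other 9, type I and type III genes, had none.

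Genes induced by type I interferon through ISGF3 were mostly low, with 2 of 19 at 1 TPM or more in every library and 5 in replicates 1 and 3. Bst2, which encodes tetherin, was the highest at 126, 137 and 56.2 TPM in replicates 1, 2 and 3, and the kinase gene Eif2ak2 followed at 14.4, 32.3 and 7.44 TPM. Mx1, Oas2, Oasl2, Rsad2 and Ifi44 had no count. The median log2(TPM + 1) of this list was 0.32, 0 and 0, against 5.33, 4.40 and 4.01 for the interferon gamma list, and the lists differ in the genes chosen, so no test is given.

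Among 13 partners of IRF4 and IRF8, 7 reached 1 TPM in every library, led by Junb (417, 395 and 260 TPM), Jund, Ikzf1 (151, 121 and 61.1 TPM) and Batf (198, 43.2 and 87.1 TPM). Batf had 1 count in replicate 2. Spi1, which encodes the myeloid and B cell partner PU.1, had no count. Of 8 corepressors and negative regulators, 5 were at 1 TPM or more in each library, among them the phosphatase gene Ptpn2, Socs1 and the IRF2 corepressor Irf2bp1. Of 8 genes known to depend on IRF4 in other helper T cell settings, Ctla4 (168, 106 and 69.5 TPM) and Icos (55.0, 24.1 and 17.5 TPM) were, while Maf, Il9 and Il17a had no count. Icos had 2 counts in replicate 2.

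**Figure D5:**
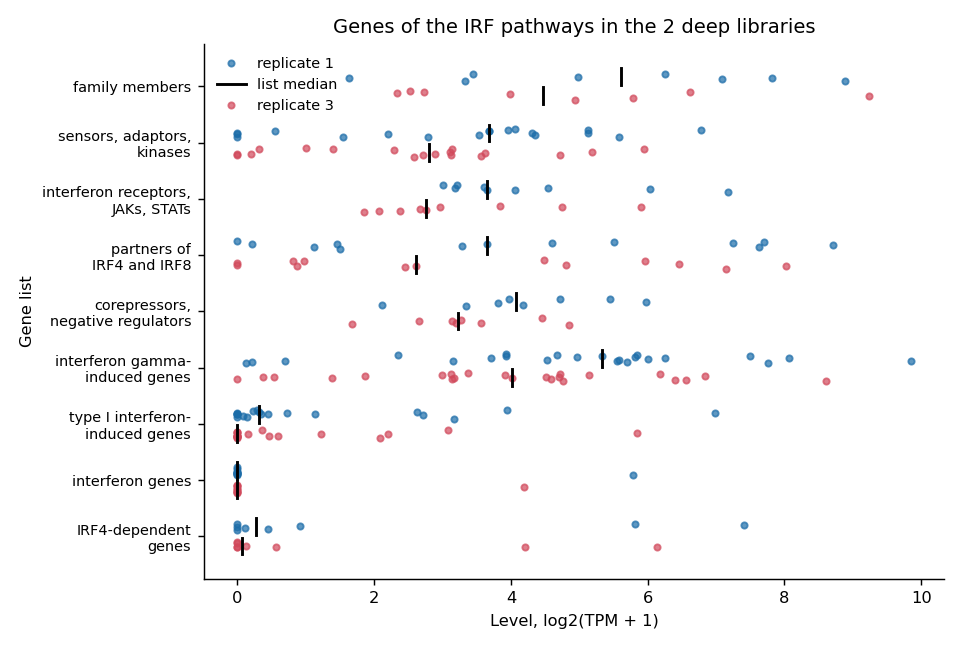
Levels, log2(TPM + 1), of the family and of the genes of 8 pathway lists in the deep libraries; each point is a gene and black bars are list medians. The family's medians are 5.62 in replicate 1 and 4.47 in replicate 3, and the medians of the type I interferon-induced genes are 0.32 in replicate 1 and 0 in replicate 3. Among the genes above the latter medians, Bst2, Eif2ak2, Ifit2 and Zbp1 are the highest by mean TPM, followed by Isg15 (5.56 TPM in replicate 1 and 1.34 TPM in replicate 3).

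Irf5 and Irf8 are also markers of other leukocytes, so the levels of such cells' markers are given beside them. Of 9 B cell markers, Ighm alone reached 1 TPM in every library (100, 21.9 from 1 count, and 46.3 TPM in replicates 1, 2 and 3). The list summed to 104, 21.9 and 54.9 TPM, and Ms4a1 and Pax5 were among those with no count. Of 11 myeloid and dendritic cell markers, Csf1r alone reached 1 TPM in every library (105, 84.5 and 167 TPM). That list summed to 111, 84.5 and 170 TPM, and Lyz2, Itgam, Adgre1, Cd14, Flt3 and Clec9a had no count. Csf1r has 17.8% of its exons under the other strand, and like Irf5 it was higher in replicate 3 (453 CPM) than in replicate 1 (231 CPM).

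The remaining markers were sparse. Of 4 plasma cell and 5 plasmacytoid dendritic cell markers none reached 1 TPM in every library, with Jchain, Mzb1, Tnfrsf17, Siglech, Klk1 and Cox6a2 at no count, Sdc1 of plasma cells at 2.33 and 1.07 TPM in replicates 1 and 3, and Pacsin1 of plasmacytoid dendritic cells at 5.07 and 1.87 TPM. All 4 natural killer cell markers, Ncr1, Klrb1c, Klra8 and Klra4, had no count. Of the CD8 T cell markers, Cd8b1 was at 6.61, 27.8 (1 count) and 4.45 TPM and Cd8a had no count. Lower levels were counted for Cd79a of the B cell list (3.21 and 7.66 TPM in replicates 1 and 3) and Cd68 of the myeloid list (4.46 and 2.02 TPM). The part of other cells in the levels of Irf5 and Irf8 was not tested.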

How the data were processed

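RNA of 3 Th1 libraries was measured by paired-end sequencing. The authors deposited raw fragment counts of each gene (whole numbers), made with featureCounts 1.4.6-p4 at strand setting 1 on GENCODE M13, per the file headers, and mm10 is the assembly per the labels. No source used here gives the kit, the aligner's version or any trimming. The deposited gene length was used to compute TPM and FPKM from the counts, and CPM is scaled to a total of 1000000 counts. Symbols were matched for 50376 of 50600 genes. The design allowed for estimated counts, and the files hold counts. Exon overlap was found with bedtools 2.31.1 (Python 3.11.15).

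Totals were 4742025, 50627 and 3543816 counts, and intervals are exact Poisson (levels), Clopper-Pearson (shares) or conditional binomial (ratios), at 95%. With 1 group no edgeR quasi-likelihood test between groups was possible. A chi-square test on scaled totals was run over genes kept by filterByExpr (edgeR 4.0.16), with Benjamini-Hochberg adjustment at 0.05 and DESeq2 1.42.0 size factors as an alternative, and was checked on simulated data. Expected counts in replicate 2 are small, so the chi-square approximation is rough there.

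The members and lists were chosen with earlier results of these data known, the members by gene symbol and not by their values. Genes named were the members, their overlap partners, Stat2, up to 4 genes per list by mean TPM and those at 0 (some items are not reported here), and the 3 nearest genes of each of the 2 highest members. Csf1r and Irak4 are singled out for their library ratio after their values were seen.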

Additional observations from a re-analysis of the deposited data

How the results depend on the processing

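Under TMM or DESeq2 rescaling the mean TPM of each member moved by less than 1 SD. Over the libraries left out, it lay between 512 and 577 TPM for Irf5 and between 131 and 194 TPM for Irf8. It moved by 1.5 times or more for Irf9, to 2.03 TPM without replicate 1 and 6.53 TPM without replicate 2 (4.36 TPM in all), and for Irf7, to 1.05 TPM without replicate 3 and 3.87 TPM without replicate 2 (2.58 TPM in all). The order by mean level was the same by CPM and FPKM, and leaving out 1 library changed the place of 0 to 2 members. Without 1 library the mean log2 ratio of Irf9 over Irf7 ranged from -0.48 to 2.10 and that of Irf9 over Stat2 from -0.051 to 0.15, both reversed without replicate 1. Adding 0.5 or 2 counts turned Irf9 over Stat2 to -0.86 or -0.36, since replicate 2 then enters with 0 counts of Irf9.

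Leaving out a library gave 0 to 5 members that varied beyond counting error and 271 to 4167 such genes, with 4 and 4681 in all 3 libraries. Without replicate 3 they were 0 of 6 members (0 of 6 with an unadjusted p under 0.05, by chi-square) and 271 of 7427 genes (3.65%). Without replicate 1 they were 1 of 6 members, Irf5, and 677 of 7147 genes (9.47%). Library totals in place of TMM gave 6 of 6 members and 6547 of 7406 genes (88.4%). The alternatives chosen after seeing the data gave 1 of 6 members and 2879 of 7406 genes (38.9%) under TMM over genes without opposite-strand exons. Testing only such genes gave 0 of 3 members and 560 of 4136 genes (13.5%) in all libraries. In replicates 1 and 3 it gave 0 of 4 members and 770 of 6641 genes (11.6%), and Irf4 had an unadjusted p of 0.0199 by chi-square. With so few members, 0 is close to these shares of all genes. Under TMM over genes without such exons the replicate 3 over replicate 1 log2 ratios of Irf8 (-0.078) and Irf9 (-0.036) came to span 0, and those of Irf3 (0.082) and Irf2 (0.052) turned sign. The cause was not tested. Replicate 2 limits what can be said of Irf2, Irf9 and Irf7. No paired analysis was possible because the series has 1 group.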

Other observations

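Among the 108 pathway genes, 64 had at least 50 counts in replicates 1 and 3 together. Of the 20 of them with opposite-strand exons, 4 were higher in replicate 3 than in replicate 1 by CPM, namely Irak4 (log2 ratio 0.67), Batf2 (0.52), Psmb9 (0.23) and Mb21d1, which encodes the DNA sensor cGAS (0.21), and the median ratio was -0.70. Of the 44 without such exons, 0 were higher in replicate 3, and the median ratio was -0.92. These genes were singled out after their values were seen.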
